A study of Mus musculus with 2 samples.

Results

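GC-rich one-directional promoter peaks are Tcf1 binding peaks whose summit lay within 1 kb of the start site of a protein-coding transcript, with no divergent start site of another coding gene within 1 kb of the summit, and with at least 50% G+C in the 201 bp centred on the summit. On chromosomes 1 to 19, 6120 of 21764 deposited peaks met this rule. They belonged to 5718 of 21418 coding genes, so that 26.7% of coding genes had at least 1 such peak. The other peaks near coding start sites were 789 one-directional peaks under 50% G+C (called GC-poor here) and 819 bidirectional peaks, which had a divergent start site of another coding gene within 1 kb. The remaining 14036 peaks lay farther from coding start sites.

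Tcf1 ChIP-seq was performed on naïve CD8+ T cells sorted from mouse spleen as GFP+ TCRbeta+ CD62Lhi CD44lo-med CD8+ cells, with 1 WT library and 1 Tcf1-deficient control library. Both libraries were immunoprecipitated with the same rabbit antiserum, raised against recombinant full-length Tcf1. The sources describe the control cells in different ways. The sample title calls them Tcf1-deficient, the genotype label reads Tcf1-/-Lef1-/-, the design text names hCD2-Cre, Rosa26-lsl-GFP mice with floxed Tcf1/Lef1 alleles, and the methods of the study name Cd4-Cre+ Tcf7 fl/fl mice. For the WT cells the design text gives the same Cre and reporter with wild-type Tcf1/Lef1 alleles. Both promoters named as driving Cre are active in T cells. By the methods the mice were young adults on the C57BL/6 background. Only DNA was measured, so the cell type could not be checked against marker transcripts.

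Promoters of mammalian genes fall broadly into GC-rich ones, which contain CpG islands, are mostly kept free of DNA methylation and serve housekeeping and many regulated genes, and GC-poor ones, which are more often tissue-restricted. Tcf1, encoded by Tcf7, and its relative Lef1 are high-mobility-group proteins that recognise an A/T-rich sequence with the core ATCAAAG and bend the DNA. GC-rich promoters in turn are known for binding sites of Sp/Klf, ETS, NF-Y (the CCAAT box), NRF1, CREB/ATF (the cAMP response element, CRE) and YY1 proteins.

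The following 101-bp windows centred on the summits of members are shown to make the sequence context of these peaks visible. These windows held the named motif and overlapped no annotated exon, and their members did not always have the largest pileup with that motif. They are written 5′ to 3′ on the strand of the gene, from the mm9 (NCBIM37) genome, in lower case with the matches to the named motif on either strand in capitals.
Tcf7 (Tcf/Lef core, chr11:52096826-52096926, minus strand): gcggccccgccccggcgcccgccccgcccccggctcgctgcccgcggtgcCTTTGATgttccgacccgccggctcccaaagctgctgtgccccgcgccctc
Gm5616 (ETS core, chr9:48258361-48258461, plus strand): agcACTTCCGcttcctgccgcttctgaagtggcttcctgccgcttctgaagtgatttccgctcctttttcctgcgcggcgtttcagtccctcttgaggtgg
Ubn2 (CRE, chr6:38383725-38383825, plus strand): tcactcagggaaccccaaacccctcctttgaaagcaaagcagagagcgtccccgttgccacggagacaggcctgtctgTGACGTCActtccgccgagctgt
Chfr (YY1 core, chr5:110564656-110564756, plus strand): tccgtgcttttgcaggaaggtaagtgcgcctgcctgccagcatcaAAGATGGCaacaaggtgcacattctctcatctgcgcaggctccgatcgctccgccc
Gsk3b (TATA box, chr16:38088937-38089037, plus strand): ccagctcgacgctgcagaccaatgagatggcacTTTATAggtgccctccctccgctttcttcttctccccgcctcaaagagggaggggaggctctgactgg

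The Tcf7 window held 1 Tcf/Lef match, read as CTTTGAT on the strand shown, which began at the summit itself. Its peak held 367 WT fragments at the summit, where 17.4 were expected from the control. Gm5616 had a pileup of 276, with its summit at −90 bp from the start site (negative positions are upstream). The Ubn2 peak had a pileup of 240, and that of Chfr, which encodes a mitotic checkpoint ubiquitin ligase, had a pileup of 90. Gsk3b, the kinase that marks beta-catenin for degradation, had a pileup of 116.

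The pileup is the number of WT fragments that covered the summit, of 36938606 WT fragments kept. The control level is the local number expected there from the 27625250 fragments kept in the control library, brought to the WT depth by the peak caller and never set under a floor of 5.42. With 1 library per group, no difference below has a replicate check, and peaks are not replicates. Intervals are 95% intervals (binomial for medians, Wilson for shares, exact Poisson for single pileups) and cover counting error only, since no molecular identifiers are described and PCR copies are not independent molecules. The smallest pileup in the deposited list was 18, so medians describe called peaks only.

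Summits of members sat just upstream of the start site. The median position was −39 bp (interval −42 to −36), with an interquartile range of −121 to 24 bp. Upstream summits numbered 4081 (66.7%), downstream summits 2005 (32.8%, interval 31.6 to 33.9), and 34 summits fell on the start base. The absolute distance had a median of 83 bp. Within 50 bp of the start lay 34.7% of summits, within 100 bp 55.7% and within 250 bp 80.2%, while 540 summits (8.82%) were more than 500 bp away. The summits thus formed a narrow cluster with thin tails that reached the limits of the rule at −999 and 996 bp.

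GC-poor promoter peaks had a similar median position of −47 bp (−74 to −29) but a much wider spread, with an interquartile range of −306 to 502 bp and 41.8% of summits beyond 500 bp. The G+C limit was itself related to position. Among members the median G+C was 67.2% for summits 1 to 100 bp downstream of the start, 57.2% for those 500 to 1000 bp upstream and 58.2% for those 500 to 1000 bp downstream, so the tighter spread of the members cannot be told apart from the rule. Bidirectional peaks had a median of −12 bp (−17 to −7). For these the distance was taken to the nearest of several start sites.

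**Figure D1:**
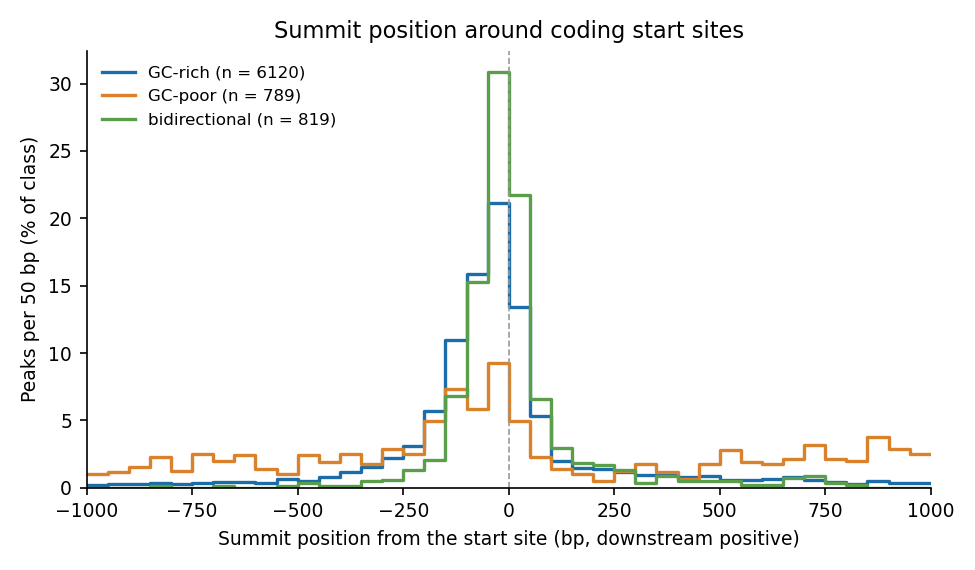
Position of summits relative to the nearest coding start site in 50-bp bins (x axis, bp, downstream positive) as a share of each class (y axis, %), for 6120 GC-rich and 789 GC-poor one-directional peaks and 819 bidirectional peaks. The bin from −50 to 0 bp held 21.1% of the members and 9.25% of the GC-poor peaks.

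The peaks as called extended over the start site. A start site was covered by 5188 members (84.8%, 83.8 to 85.6), against 52.2% of GC-poor and 94.7% of bidirectional peaks. From the start site, members reached a median of 272 bp upstream (267 to 279) and 221 bp downstream (214 to 227). Measured from the summit the order was the other way round, with 226 bp (222 to 230) to the upstream edge and 251 bp (247 to 256) to the downstream edge. The longer side of the peak lay downstream of the summit in 56.1% of members (54.9 to 57.4), in 52.3% of GC-poor peaks (48.9 to 55.8) and in 37.5% of bidirectional peaks.

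**Figure D2:**
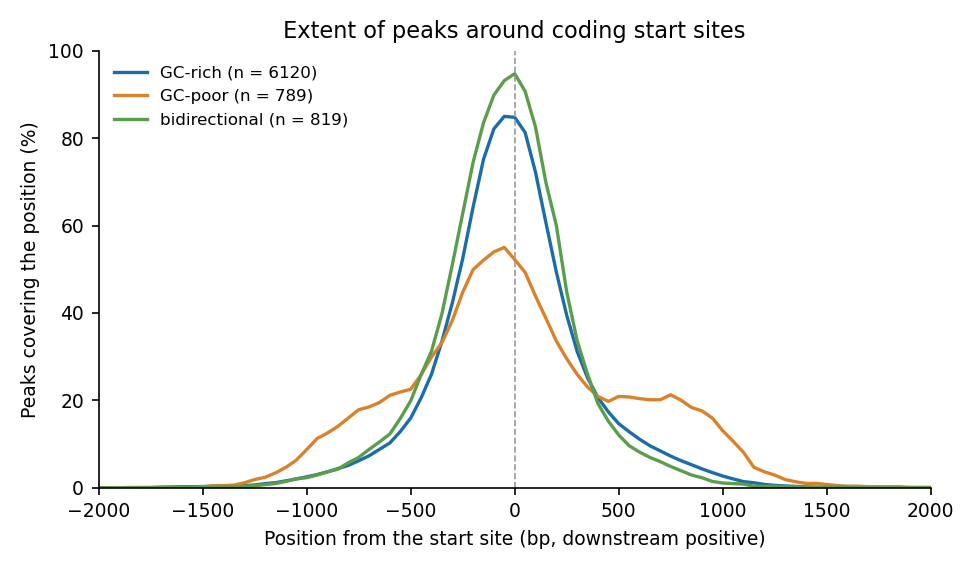
Share of peaks (y axis, %) that covered each position around the start site (x axis, bp, downstream positive), for the 3 promoter classes. Members covered the start in 84.8%, a point 500 bp upstream in 16.0% and a point 500 bp downstream in 14.7%.

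Most members marked the annotated 5′ end of a gene. A member lay within 1 kb of the annotated 5′ end of its gene in 5438 cases (88.9%), and the other 682 were at an internal start site. By the annotation, the summit base was outside annotated transcripts in 2936 members (48.0%), in a noncoding part of an exon in 1782 (29.1%), in an intron in 1149 (18.8%) and in a coding exon in 253 (4.13%). The last group had the smallest median pileup, 30 (28 to 31), at a median position of 102 bp downstream, against a pileup of 40 (40 to 41) outside transcripts, at −89 bp.

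Members were broader than peaks away from coding starts but not taller. Their median width was 505 bp (496 to 513), with an interquartile range of 348 to 711 bp and extremes of 185 and 2739 bp. Peaks away from coding starts had a median width of 419 bp (414 to 424), GC-poor peaks 490 bp (460 to 524) and bidirectional peaks 566 bp (544 to 592). A width of at least 1000 bp was reached by 550 members (8.99%), against 4.58% of peaks away from starts and 13.7% of GC-poor peaks.

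The median pileup of members was 38 fragments (38 to 39), with an interquartile range of 29 to 55 and extremes of 18 and 515. It was 42 (39 to 44) for GC-poor peaks, 41 (40 to 43) for bidirectional peaks and 41 (41 to 42) for peaks away from coding starts. The ratio of the medians of members and GC-poor peaks was 0.905 (0.864 to 1, from the outer bounds of both intervals). The classes differed more at the top of the range. A pileup of at least 100 was found in 379 members (6.19%, 5.62 to 6.82), 6.59% of bidirectional peaks, 14.8% of GC-poor peaks (12.5 to 17.5) and 15.7% of peaks away from starts. At 200 or more there were 55 members (0.899%), against 0.611% of bidirectional peaks, 4.31% of GC-poor peaks and 4.45% of peaks away from starts.

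Fold enrichment, the pileup over the control level with 1 added to each, had a median of 5.92 in members. At least 4-fold enrichment was reached by 5330 members (87.1%, 86.2 to 87.9), close to the 86.2% of all 21764 peaks. At 20-fold or more there were 182 members (2.97%, 2.58 to 3.43), under the 6.94% of all peaks, and at 40-fold or more 14 (0.229%), against 1.08%. Bidirectional peaks were close to the members here, with 3.54% (2.48 to 5.04) at 20-fold and 0.244% at 40-fold. The control level rose above its floor at 1046 members (17.1%), against 16.6% of all peaks, and exceeded 20 at only 4. Where the control level was at its floor, fold enrichment carries the same information as the WT pileup.

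Pileup and width rose together across members (Spearman's rho 0.686, n = 6120), a description of peaks that share 1 library and 1 caller, and the rho was 0.302 among the 1707 members at 8-fold enrichment or more. Pileup also varied with the position of the summit. It had a median of 45 (41 to 48) at 250 to 500 bp upstream and 43 (41 to 45) at 100 to 250 bp upstream, against 35 (34 to 36) within 100 bp downstream and 34 (32 to 37) at 500 to 1000 bp downstream. Width was largest in the same upstream bin, with a median of 688 bp (644 to 734) at 250 to 500 bp upstream and 462 bp (440 to 482) within 100 bp downstream. The pileup was also compared within ranges of G+C. Summits up to 250 bp upstream against those up to 250 bp downstream had median pileups of 43 (41 to 45) against 41 (38 to 45) for a G+C share of 50 to 60%. They were 39 (38 to 40) against 34 (33 to 36) in the range of 60 to 70%, and 38 (37 to 39) against 34 (33 to 36) above it, with overlapping intervals in the first range only.

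**Figure D3:**
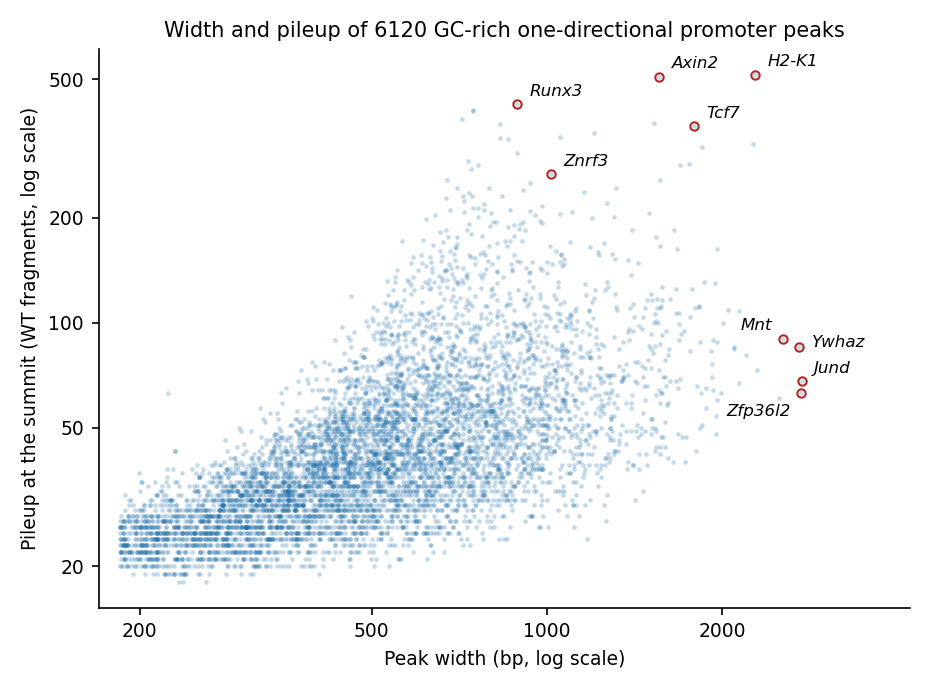
Width (x axis, bp, log scale) and pileup at the summit (y axis, WT fragments, log scale) of the 6120 members, 1 point per peak, with named members circled. H2-K1 and Axin2 stand at pileups of 515 and 508, and the widest peaks, at Jund, Zfp36l2, Ywhaz and Mnt, had pileups of 63 to 90.

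Next to the limits of the rule, the values on both sides were close. The 159 one-directional peaks at 50 to 51% G+C had a median pileup of 39 and a median width of 484 bp, and the 118 at 49 to 50% had 37 and 477 bp. The 74 members at 900 to 1000 bp from the start had medians of 39.5 and 435 bp, and the 80 peaks that met the other criteria at 1000 to 1100 bp had 39 and 474.5 bp.

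H2-K1, which encodes an MHC class I heavy chain, had the largest pileup, 515 (Poisson interval 471 to 561) against a control level of 7.35, in a peak of 2274 bp (chromosome 17, 34136981 to 34139254) with its summit at −199 bp outside annotated transcripts. Axin2, a scaffold protein that feeds back on Wnt signalling and a standard target of Tcf/Lef proteins, followed with 508 (465 to 554) against 11.4, in a peak of 1561 bp (chromosome 11, 108781352 to 108782912). Its summit was at 77 bp, in the noncoding part of an exon, with both a Tcf/Lef core and a CCAAT box within 100 bp. Runx3, the Runt-family factor required for the CD8 lineage, had 423 (384 to 465) against the floor of 5.42, in a narrower peak of 888 bp (chromosome 4, 134675878 to 134676765) with its summit at −255 bp.

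Axin2 and Grcc10, 2 of the 8 largest pileups, carried the Tcf/Lef core, which was found at 3.27% of all members. The other 5 of this group were Ddx20 (an RNA helicase of the SMN complex) with 408, Zfp703 (a zinc finger transcriptional regulator) with 404, Abhd8 with 383, Grcc10 with 375 and Nadk (the kinase that makes NADP) with 372. By fold enrichment Runx3 came first at 66.1, before H2-K1 at 61.8 and Nadk at 58.1. The rest of the first 8 by fold enrichment were Rnf145 (53.4), Phf12 (52.7), Zcchc11 (50.01), Cd101 (48.3) and Chd2 (48.0), of which Rnf145 had the Tcf/Lef core. Phf12 encodes a Sin3-associated protein, Zcchc11 an RNA uridylyltransferase and Chd2 a chromatin remodeller. Summits of Rnf145, Phf12 and Zcchc11 lay far from the start, at 848, −877 and 830 bp.

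The widest members had moderate pileups. Jund (an AP-1 subunit) spanned 2739 bp with a pileup of 68, Zfp36l2 (a protein that promotes mRNA decay) 2729 bp with 63, Ywhaz (14-3-3 zeta) 2712 bp with 85 and Mnt (a Max-binding repressor) 2544 bp with 90. At Jund and Zfp36l2 the summit lay near the start, at 47 and −56 bp, and the peak ran 2084 and 2201 bp into the gene. At Ywhaz it ran 2527 bp upstream instead.

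A few members had appreciable signal in the control library. Sfi1, which encodes a centrin-binding protein, held 325 WT fragments where the control gave 233, a fold enrichment of 1.39. Mll1, a histone H3K4 methyltransferase, had 142 against 36.8, Hjurp 283 against 30.1 and Denr 63 against 26.7. The Tcf7 promoter came next with 367 against 17.4 (fold enrichment 20.02). Leaving out the 4 members over 20 left the median pileup at 38 and the median width at 505 bp.

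Members had the composition of CpG islands. Their median G+C was 64.7%, which the rule bounds at 50%, and the ratio of observed to expected CpG, which the rule did not use directly, had a median of 0.854 (0.846 to 0.861). The ratio was 0.396 (0.368 to 0.425) in GC-poor peaks, 0.880 in bidirectional peaks and 0.248 in peaks away from coding starts. It was at least 0.6 in 5059 members (82.7%), 26.2% of GC-poor peaks and 9.42% of peaks away from starts. Across members, the CpG ratio and the G+C share were related (rho 0.529, n = 6120). The pileup was about flat over the CpG ratio, with a median of 40 (37 to 43) at ratios of 0.2 to 0.4 and 38 (37 to 40) at 1 or more.

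Genes with a higher CpG ratio at their start more often had a member. A gene or its start counted as having a member if a member lay at any coding start of the gene. Of 14163 coding genes whose 5′ end was one-directional with at least 50% G+C in 201 bp, 5352 (37.8%, 37.0 to 38.6) had a member and 8272 had no peak within 1 kb of any of their coding starts. The median CpG ratio at the start was 0.891 (0.884 to 0.897) with a member and 0.573 (0.559 to 0.585) without a peak. The share with a member was 9.98% (9.02 to 11.04) at CpG ratios under 0.4, then 19.8% for ratios of 0.4 to 0.6 and 39.6% for 0.6 to 0.8. It reached 52.9% for 0.8 to 1 and 64.6% (62.7 to 66.5) above that. By G+C the shares were 21.5% at 50 to 60%, 46.0% at 60 to 70% and 49.03% at 70% or more. G+C at the summit is part of the rule, so starts near 50% can have their peak counted as GC-poor, and this relation is not independent of the rule. Expression of these genes and the accessibility of their promoters were not measured here, and their part in this relation was not tested.

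In all 10 motifs were searched as exact letters, on either strand, in the 201 bp around the summit, and the same letters read in reverse order served as a control for base composition only. The core of Tcf/Lef proteins was written ATCAAAG and that of the ETS family CGGAAGT. Runx proteins, which act widely in T cells, were given the letters TGTGGTT. For the Sp/Klf zinc finger proteins the letters were CCCGCCC, and NF-Y was represented by the CCAAT box. For NRF1, a regulator of mitochondrial and housekeeping genes, the motif was GCGCATGC, and the cAMP response element was TGACGTCA. The YY1 core was AAGATGGC. The E-box, bound by Myc and its relatives, was CACGTG, and the TATA box of the basal transcription machinery was TATAAA. The Sp/Klf core reads the same in reverse order, so it has no such control. Matches of different motifs can share letters. At least 1 of the 10 was present at 4521 members (73.9%), at least 2 at 1886 (30.8%), and none at 1599.

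The Sp/Klf, CCAAT and ETS letters were the most frequent of the 10 motifs in members. The Sp/Klf core was found at 43.2% of members (41.9 to 44.4), the CCAAT box at 26.2% (25.1 to 27.3) and the ETS core at 13.8% (12.9 to 14.7). Reversed letters gave 13.3% for CCAAT and 2.91% for ETS. Over the starts of all 21418 coding genes, the Sp/Klf core was found in 28.0%, CCAAT in 27.1% and the ETS core in 6.87%. These windows had the same length but were centred on the start. They had no G+C or direction limit, so they are not matched to the members. The E-box was present at 8.95% of members (reversed 4.31%), NRF1 at 4.05% (0.196%), YY1 at 3.76% (0.261%), the CRE at 3.63% (0.278%) and the TATA box at 2.21% (1.601%), against 5.58%, 2.61%, 3.06%, 1.91% and 8.25% of all starts. Exact matches say only that these letters were present, not that a factor was bound.

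The Tcf/Lef core itself was found at 200 members, 3.27% (2.85 to 3.74), against 1.57% for its reversed letters and 1.77% of all coding starts. It was found at 12.0% of GC-poor peaks (9.95 to 14.5, reversed 4.69%), 4.15% of bidirectional peaks and 12.7% of peaks away from starts (reversed 2.63%). The Runx core was found at 3.42% of members (reversed 1.47%), 2.56% of bidirectional peaks, 17.0% of GC-poor peaks and 20.4% of peaks away from starts. The ETS core was found at 13.8% of members, 5.96% of GC-poor peaks, 19.7% of bidirectional peaks and 2.64% of peaks away from starts. The classes differ in G+C by the rule and in CpG ratio. Reversed letters keep the base composition but not the number of CpG in the ETS, CRE, E-box, NRF1 and YY1 letters, so for these 5 they are no control for CpG content, and differences in their shares between classes cannot be told apart from it.

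The motifs differed in their median place around the start site, each with a wide spread, in windows that the rule keeps near the start. Relative to the start, the nearest ETS core had a median position of −18 bp (interquartile range −65.25 to 9), Sp/Klf at −49 bp, CCAAT at −68 bp (−128 to −24) and the TATA box at −29.5 bp. YY1 was the only one of these with a median downstream, at 20 bp, and 77.0% of its matches (71.1 to 81.9) were on the strand of the gene. The other motifs that are not their own reverse complement had between 42.5% and 60% of matches on that strand. Measured from the summit, the Tcf/Lef core was the closest, at a median of 14.5 bp, with 62.5% (55.6 to 68.9) within 25 bp, against 36.5 bp and 34.95% (31.8 to 38.2) for the ETS core and 44 bp and 29.9% for CCAAT.

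The shares of several motifs varied with the distance of the summit from the start, in bins that also differed in composition. The median CpG ratio was 0.882 up to 100 bp upstream, 0.618 at 500 to 1000 bp upstream and 0.586 as far downstream. By G+C, the Tcf/Lef share was 9.14% at 50 to 55% and 0.504% at 70 to 75%. By CpG ratio, the ETS share was 0.725% under 0.2 and 16.5% at 0.8 to 1. Position at like composition was not tested. The ETS core was found at 18.8% of members (17.2 to 20.5) with the summit up to 100 bp upstream, 10.02% at 100 to 250 bp upstream, 5.24% at 500 to 1000 bp upstream and 2.89% at 500 to 1000 bp downstream. Sp/Klf and CCAAT were also commonest near the start and on its upstream side, with CCAAT highest at 35.8% (33.2 to 38.6) for summits 100 to 250 bp upstream. The Tcf/Lef core had the reverse pattern. Its share was 1.80% (1.33 to 2.43, reversed 1.93%) up to 100 bp upstream, 9.17% (6.08 to 13.6, reversed 2.62%) at 500 to 1000 bp upstream and 6.75% (4.46 to 10.1, reversed 2.25%) at 500 to 1000 bp downstream.

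**Figure D4:**
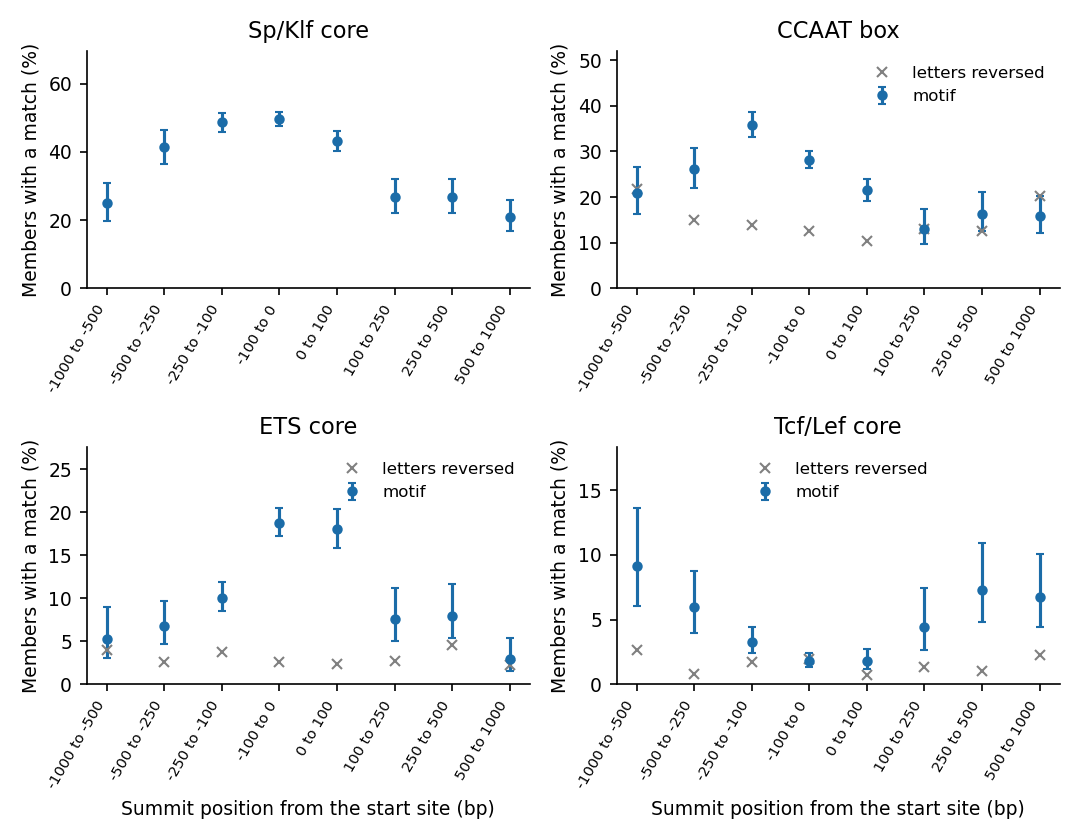
Share of members with a match within 100 bp of the summit (y axis, %, points with 95% Wilson intervals) by position of the summit from the start site (x axis, bp) for 4 motifs, with reversed letters as crosses where these differ from the motif. The ETS core falls from 18.8% just upstream of the start to 2.89% at 500 to 1000 bp downstream, while the Tcf/Lef core goes from 1.80% just upstream to 9.17% at 500 to 1000 bp upstream. The bins also differ in G+C and CpG ratio.

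Genes with a member held the ETS letters around their start more often than genes without a peak, also at like CpG ratios. In the 201 bp around the gene's 5′ end, the ETS core was found at 14.6% of the 5352 GC-rich one-directional starts with a member (13.7 to 15.6) and 3.17% of the 8272 without a peak (2.81 to 3.57). Under a CpG ratio of 0.6 the ETS shares were 4.03% (2.80 to 5.76, reversed letters 3.88%) and 1.57% (1.24 to 1.98, reversed letters 3.45%). Within CpG ratios of 0.6 to 0.8 they were 16.3% (14.2 to 18.6) and 4.40% (3.49 to 5.53). Within 0.8 to 1 they were 16.5% and 5.18%, and at 1 or more 15.8% and 5.53%. Reversed letters gave at most 2.93% in these higher ranges. At ratios of 0.8 to 1, intervals were also apart for YY1 at 6.62% (5.603 to 7.80) and 2.25% (1.63 to 3.10), for the CRE at 4.29% and 1.81%, for NRF1 at 5.81% and 3.12% and for CCAAT at 29.0% and 22.8%. At ratios of 1 or more the YY1 intervals overlapped, with 5.49% (4.47 to 6.73) and 3.03% (2.03 to 4.51), and the NRF1 shares were 6.45% and 5.93%. At ratios of 0.6 to 0.8 the CRE was at 2.25% (1.53 to 3.30) and 2.103% (1.502 to 2.94), and NRF1 at 3.51% and 3.31%. The TATA box went the other way under 0.6, at 3.02% (1.98 to 4.57) with a member and 9.83% (8.98 to 10.8) without a peak. In the higher CpG ranges its intervals overlapped. The Sp/Klf core, at 47.2% against 29.9% over all these starts, differed less within CpG ranges. It was at 22.2% (19.2 to 25.4) against 14.6% (13.5 to 15.6) under 0.6, at 48.1% (45.1 to 51.004) against 42.3% (39.8 to 44.7) for 0.6 to 0.8 and at 53.5% (51.3 to 55.7) against 50.7% (48.3 to 53.2) for 0.8 to 1. At ratios of 1 or more the Sp/Klf shares were 49.6% (47.1 to 52.1) and 48.5% (44.9 to 52.04). The Tcf/Lef core around the start was found at 0.972% (0.742 to 1.27) with a member and 1.14% (0.930 to 1.39) without a peak. These windows reached only 100 bp to each side of the start. The Tcf/Lef core nearest to the summits of members had an interquartile range of −210.75 to 171.75 bp from the start. Many of those matches thus lay outside such windows.

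Within members, the Tcf/Lef core went with height. Its share was 1.52% (0.871 to 2.64) under 4-fold enrichment, 1.78% for 4 to 6-fold and 2.58% for 6 to 10-fold. It was 7.46% (5.86 to 9.45) for 10 to 20-fold and 17.3% (12.3 to 23.7) for 20 to 40-fold, and 4 of 14 members had it above that. Reversed letters stayed between 0.963% and 1.90% up to 40-fold. The rise was present at lower and at higher G+C. At 50 to 60% G+C the share was 4.79% (3.52 to 6.48) under 6-fold and 21.5% (14.4 to 30.9) at 20-fold or more, and at 60% or more it was 0.615% (0.366 to 1.03) and 14.6% (8.74 to 23.4). The 200 members with the core had a median pileup of 59.5 (51 to 70) and a median width of 625 bp (541 to 664), against 38 and 501.5 bp for the 5920 without, and a lower median G+C of 56.7% against 65.2%. With the ETS core the median pileup was 41 (39 to 43) against 38 (37 to 39) without.

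**Figure D5:**
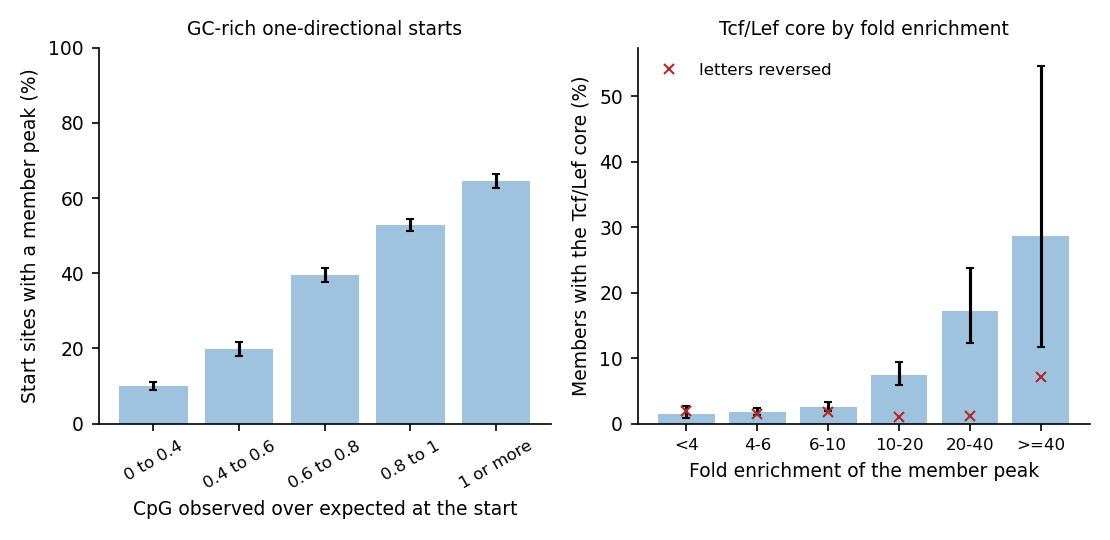
Left, share of genes with a GC-rich one-directional start that had a member at any coding start (y axis, %), by CpG ratio at the start (x axis, observed over expected). Right, share of members with the Tcf/Lef core (y axis, %) by fold enrichment (x axis), with reversed letters as crosses. Bars carry 95% Wilson intervals. The left bars go from 9.98% to 64.6%, and the right bars from 1.52% under 4-fold to 17.3% at 20 to 40-fold.

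Most genes had a single member, 5360 of 5718. A further 321 had 2, and 37 had 3 or more. Neighbouring members of the same gene were a median of 1101.5 bp apart (interquartile range 790 to 3237.25), and 274 of the 402 gaps were under 2 kb. Syt11 and Sept9 had 5 members each. At Sept9, a septin gene with several start sites, pileups were 24, 73, 22, 56 and 103, and at Syt11, a synaptotagmin gene, they were 54, 69, 37, 32 and 25. Ubtf (an RNA polymerase I transcription factor), Atxn7l1 and Laptm5 had 4 each. Runx3, Vav1, Arid1a, Arid1b and Cic were among the 32 genes with 3, Arid1a and Arid1b being subunits of SWI/SNF chromatin remodellers.

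T cell gene lists had members at most of their genes. Of 30 T cell transcription factors, 22 had 1 or more (29 members, median pileup 47, interval 32 to 51), against 26.7% of all coding genes. Runx3 had 423 WT fragments, Tcf7 367 against a control level of 17.4, Lef1 112, Tox (an HMG-box factor of T cell exhaustion and development) 109 and Klf2 (a factor of naïve T cell quiescence and migration) 78, the last 3 against the control floor of 5.42. At Lef1 the summit lay at −508 bp in an intron. Eomes, Gata3, Myb, Nfkb1 and Zbtb7b had no peak at a coding promoter, and Elf1, Fli1 and Runx1 had GC-poor promoter peaks only.

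Of 20 genes of the TCR complex and proximal signalling, 14 had a member, against 26.7% of all coding genes (17 members in all, median pileup 44, 32 to 70). Of the 15 with a GC-rich one-directional start, 12 had a member, against 37.8% of all such starts. Zap70, the kinase recruited to phosphorylated CD3 chains, had 228 against a control level of 6.69, with its summit at −53 bp and a CRE within 100 bp. Lck, the coreceptor-bound kinase, had 124, Fyn 119 with a Tcf/Lef core, the inhibitory receptor Cd5 92 and Themis 70, each against 5.42. Of 14 homing and cytokine receptor genes, 12 (85.7%) had a member, led by Ccr7, the lymph node homing receptor, with 209 against 9.36 and a Runx core. Ifngr1 had 95, both members of S1pr1 (the receptor for lymph node egress) 88 and 83, and Itgal (the LFA-1 alpha chain) 67. Il7r had a GC-poor promoter peak and Ccr9 had none.

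Of 18 genome architecture and corepressor genes, 17 had a member (94.4%, against 26.7% of all coding genes), and these were wide, with a median of 842 bp (566 to 1101) against 505 bp for all members. The cohesin loader Nipbl had the largest pileup, 100 in a peak of 2009 bp, followed by Ezh2 (88), the cohesin subunit Rad21 (84), the polycomb subunit Suz12 (83) and the Groucho corepressor Tle4 (78). Hdac3 was the gene without a peak, and another 2 listed genes were not analysed here.

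Of 15 Wnt pathway genes, 12 had a member (80%, against 26.7% of all coding genes). The 13 members had a median pileup of 64, with an interval of 27 to 188 that includes the 38 of all members, and 3 of these members reached 20-fold enrichment, against 2.97% of all members. After Axin2 came Znrf3, a ubiquitin ligase that removes Wnt receptors, with 267 at 1 bp from the start, the kinase gene Csnk1a1 with 188 at −384 bp, Gsk3b with 116 and Axin1 with 98. Against 3.27% of all members, the Tcf/Lef core was present at 4 of the 13, Axin2 and Csnk1a1 among them. The receptor genes Fzd7, Lgr5 and Lrp5 had no promoter peak.

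Of 14 B cell and myeloid genes, 0 had a member, which allows a share of up to 21.4% (3 counts of 14). Of these genes, 12 had a GC-rich one-directional start, 8 of them with a CpG ratio under 0.4, where 9.98% of all such starts had a member. In the TCR list 8 of 15 such starts were under 0.4 and 12 of the 15 genes had a member, and in the homing and cytokine receptor list 6 of 13 were under 0.4 and 12 of the 13 had one. How many of the starts under 0.4 had a member was not counted apart, and any part of the CpG ratio in these counts was not tested. Only Itgam had a promoter peak, a GC-poor one, and the other 13 (among them Pax5, Ebf1, Cd79a, Cebpa, Csf1r and Irf8) had none. Another 4 genes of this list were not analysed here. The lists were chosen with earlier results of these data known.

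Housekeeping lists had median pileups between 37 and 44, against 38 for all members. Of 77 cytosolic ribosomal protein genes, 54 had a member (57 in all), or 70.1% of genes, against 26.7% of all coding genes and 73.3% of the T cell transcription factors. These had a median pileup of 44 (38 to 55) and a median position of −15 bp (−31 to 5). The ETS core was at 15 of these 57 members, against 13.8% of all members. In the other housekeeping lists it was at 7 of 24 proteasome members, 6 of 36 mitochondrial ribosomal members and 5 of 37 oxidative phosphorylation members. Of 40 proteasome subunit genes, 24 (60%) had a member, with a median pileup of 41 (34 to 53) and the largest, 92, at Psmb4. For 76 mitochondrial ribosomal protein genes the count was 36 (47.4%, median pileup 39), and for 78 oxidative phosphorylation subunits it was 37 (47.4%, median pileup 37), with Mrpl22 at 95 and Ndufs6 at 120 the tallest. Median positions were −13.5 bp (−76 to 12) for the proteasome list, −26.5 bp (−47 to −5) for the mitochondrial ribosomal list and −49 bp (−82 to −15) for the oxidative phosphorylation list, against −39 bp for all members. Bidirectional peaks were the only promoter peaks at 9 genes of the mitochondrial ribosomal list and 8 of the oxidative phosphorylation list.

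Members were spread over all 19 chromosomes, from 156 on chromosome 18 to 563 on chromosome 11. They made up 23.3% of peaks on chromosome 1 and 32.5% on chromosome 11, the extremes. The median pileup per chromosome ran from 35.5 to 42, the median width from 442.5 to 543.5 bp and the median position from −56.5 to −27 bp. Another deposited summit lay within 10 kb of 42.1% of members, against 62.0% of GC-poor peaks, 33.0% of bidirectional peaks and 58.8% of peaks away from coding starts.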

How the data were processed

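ChIP-seq reads of 1 WT and 1 Tcf1-deficient library were aligned by the authors to mm9 with Bowtie2 v2.2.5, and MACS v2.1.1.20160309 was used by the authors for peak calling at p under 1e-05, with the WT library as treatment. The labels give 1 library per group. The deposited pileup is a signal, the unscaled coverage of WT fragments at the summit. The deposited fold enrichment is a ratio of pileup plus 1 to the control level plus 1, from which the control level was computed back. The deposited −log10 p and q were used only as limits of 1e-05 and 0.05 in an alternative. Positions and widths are in bp as deposited.

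Start sites of protein-coding transcripts of coding genes (44018 positions) came from GENCODE vM1 and sequence from NCBIM37, both of the build of the files. Python scripts used numpy, pandas and scipy 1.17.1. Classification and intervals were tested on simulated data. No test was run. Named members were the 8 largest by pileup, the 8 largest by fold enrichment, the 4 widest, up to 5 per gene list, and genes with 3 or more members. The 5 members with the largest control level were added after their values were seen. Members, lists and motifs were chosen with earlier results of these data known. In all 11 alternative settings were tried. Tables of another genome build were not used here, and some items named by these rules are not reported here.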

Additional observations from a re-analysis of the deposited data

How the results depend on the processing

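Of 92 recomputed values over 11 alternative settings, 64 stayed within the 95% interval of the reported value (for the number of members, within 1.5 times) and 28 moved. Only the median position could change sign, and it stayed negative in every setting. A fold minimum of 8 gave 1707 members, a median position of −65 bp, 26.8% of summits downstream, a median width of 722 bp, a median pileup of 71, an ETS share of 14.9% and a Tcf/Lef share of 6.44%. A fold minimum of 4 with p and q limits gave −43 bp, 30.8%, 542 bp and 42 fragments. By construction the share at 4-fold or more is 100% under both. Using 1 start per gene gave −30 bp, 38.5% downstream and an ETS share of 14.8%. A distance of 500 bp gave 30.5% downstream, a pileup ratio to GC-poor peaks of 0.848, an ETS share of 14.7% and a Tcf/Lef share of 2.84%. A G+C minimum of 60% gave −32 bp, 34.0% downstream, a median pileup of 37 and a Tcf/Lef share of 1.39%. With 1 peak per gene the median width was 516 bp and the share at 4-fold or more 88.5%. A motif window of 50 bp to each side gave 8.69% for ETS and 2.61% for Tcf/Lef, in windows of fewer bases. The cause of the other moves was not tested. No paired analysis was possible because each group has 1 library. Depth limits the list at its lower end, where the smallest pileup called was 18, so start sites without a peak are not shown to be unbound. No setting changed which libraries were compared.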

Other observations

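Chromosome X lies outside the rule. Of 463 deposited peaks there, 112 (24.2%) met the other criteria, and they belonged to 110 of 932 coding genes, or 11.8% (9.89 to 14.03), against 26.7% of the genes on chromosomes 1 to 19. These X peaks had a median pileup of 34.5 (31 to 38), a median width of 392.5 bp (348 to 424) and a median position of −40 bp, and 80.4% of them reached 4-fold enrichment. Against the members on the other chromosomes, with medians of 38 fragments, 505 bp and −39 bp and 87.1% at 4-fold, they were thus similar in position and narrower. The interval of their pileup reached 38. Their share at 4-fold had an interval of 72.0 to 86.7%, which overlapped that of the members (86.2 to 87.9). No difference was tested.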
